A study of Mus musculus with 2 samples.

Results

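The LDL receptor family was described in primary mouse osteoblast cultures through 9 genes, Vldlr, Lrp1, Lrp2, Lrp4, Lrp8, Lrp10, Lrp12, Lrpap1 and Sorl1, out of 18193 genes that the array named. The genes were chosen by name, as a group around Vldlr, because Vldlr was already known to stand far higher at day 12 in these data, so its rise is a description and supports nothing. All 24 probe sets annotated with 1 of the 9 symbols were taken. Cells of newborn mouse calvariae, the bones of the skull roof, had been cleared of cells positive for CD11b, an integrin of myeloid cells, and were kept in 50 µg/ml ascorbic acid and 10 mM β-glycerophosphate, the supplements that let osteoblasts lay down and mineralise a matrix. The 2 groups were cultures differentiated for 12 days and for 5 days, with 1 Affymetrix array each. No other treatment was given, and the strain and the number of animals behind each culture were not given in the sources used here. With 1 array per day there is no replicate error, no standard error and no p-value for any value, and every difference below compares these 2 arrays.

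Receptors of this family carry clusters of cysteine-rich ligand-binding repeats outside the cell and short sorting signals inside it. They take up lipoproteins, proteases bound to their inhibitors and other cargo, and several also pass signals on, as Vldlr and Lrp8 do for reelin and Lrp4 does for agrin at the neuromuscular junction. In bone, Lrp4 is known as a receptor of sclerostin and Lrp1 as a receptor for remnant lipoproteins. Lrpap1 encodes a chaperone that keeps ligands off these receptors while they fold, and Sorl1 joins the family's ligand-binding repeats to a VPS10 domain, the mark of a family of intracellular sorting receptors.

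The promoter windows of Vldlr are shown because its transcript had the largest ratio of the 9 genes. RefSeq, on the build GRCm38.p6, gave windows of 300 bases (250 before a start site and 50 after it) for 7 of the 9 genes. Vldlr had 2 of them on the plus strand, with start sites 536 bases apart. Capitals mark matches, on either strand, to 7 short motifs: ACGTG and GCGTG (the core of the hypoxia response element), GGGCGG (the GC box), CCAAT (the CCAAT box), TATAAA (the TATA box), TGTGGT (a Runx site) and AGGTCA (the unit of nuclear receptor sites). No 2 matches overlapped in these windows.
Vldlr upstream start, chr19:27216234-27216533, plus strand: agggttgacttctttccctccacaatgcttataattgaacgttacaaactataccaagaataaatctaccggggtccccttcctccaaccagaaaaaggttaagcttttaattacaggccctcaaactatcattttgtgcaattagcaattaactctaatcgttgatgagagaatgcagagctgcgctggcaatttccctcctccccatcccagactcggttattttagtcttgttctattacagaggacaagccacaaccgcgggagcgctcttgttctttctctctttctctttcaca
Vldlr downstream start, chr19:27216770-27217069, plus strand: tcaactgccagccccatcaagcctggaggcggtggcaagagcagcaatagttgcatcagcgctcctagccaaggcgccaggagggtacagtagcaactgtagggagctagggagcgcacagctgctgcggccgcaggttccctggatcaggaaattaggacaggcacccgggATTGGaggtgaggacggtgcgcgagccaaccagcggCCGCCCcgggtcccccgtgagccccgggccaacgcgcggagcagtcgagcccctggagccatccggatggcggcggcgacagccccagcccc
The upstream window held none of these letters and had a GC content of 43%. The downstream window, with a GC content of 68%, held 1 CCAAT match and 1 GGGCGG match, both on the minus strand, which begin 78 and 42 bases before the start site. Among all 32851 windows, CCAAT occurred in 37.4% and GGGCGG in 35.7%. ACGTG and GCGTG, the core letters of the hypoxia response element, were absent from both Vldlr windows, while 43.8% of all windows held at least 1 of them. A match or its absence in a window this short describes letters only. Among the other members, Lrp8, Lrp10, Lrpap1 and Sorl1 had a window with at least 1 of these cores.

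The signal is a linear brightness per probe set, and levels of different probe sets cannot be set against each other. The 60th percentile of an array served as its floor, 44.8 at day 12 and 46.6 at day 5. A probe set at or above it on at least 1 array counted as measured, a value below the floor was raised to it before a ratio was taken, and the fold is then a bound, written as "at least". Of the 24 probe sets, 17 were measured, 15 of them on both arrays, and 7 lay below the floor on both. Of the 9 genes, 8 had a measured probe set. The log2 ratio is that of day 12 over day 5, and a gene's ratio is that of its brightest probe set.

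Vldlr, which encodes a receptor for triglyceride-rich lipoproteins and reelin, was 10.2-fold higher at day 12 by its brightest probe set, 1434465_x_at, which gave 3250 at day 12 and 318.6 at day 5. The probe set 1417900_a_at gave 1055 at day 12 and 101.3 at day 5 (10.4-fold). The probe set 1438258_at gave 531 at day 12 and 48.5 at day 5 (11.0-fold), with the day 5 value just above the floor. All of these stood far higher at day 12, and so did the probe set that gave 500.9 at day 12 and 61.2 at day 5 (1435893_at, 8.18-fold). The 2 dimmest probe sets were below the floor at day 5. For 1442169_at the signal was 196.5 at day 12 and 25.9 at day 5, at least 4.21-fold higher, and for 1451156_s_at it was 92.7 at day 12 and 14 at day 5, at least 1.99-fold higher. The spread over the Vldlr probe sets, from a log2 ratio of 0.99 to 3.45, therefore comes in part with the floor. Without the floor the ratios of the same 6 probe sets still ran from 2.73 to 3.45. Day 12 was above day 5 in all 6.

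**Figure D1:**
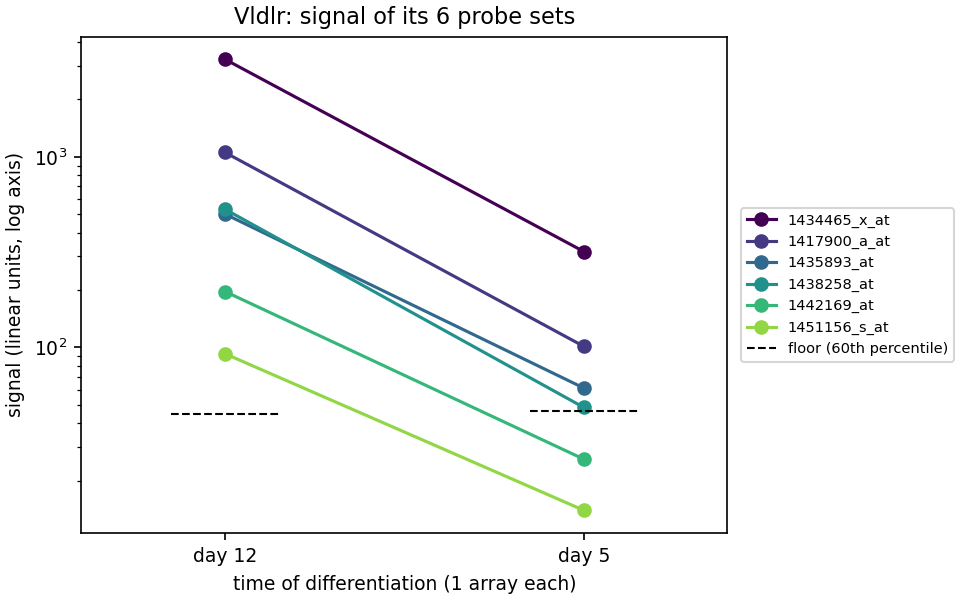
Signal of the 6 Vldlr probe sets (linear units on a log axis) on the day 12 array, left, and the day 5 array, right; each line is 1 probe set and the dashed marks are each array's floor. All 6 lines are higher at day 12, by log2 ratios of 2.73 to 3.45 without the floor, and 2 of them lie below the floor at day 5.

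The 4 Vldlr probe sets that passed the floor on each array spanned 0.42 in log2 ratio. In the 486 genes with at least 4 such probe sets, the median span was 0.42, and 50.8% of these genes had a narrower one than Vldlr. In 7 of the 486 genes, Vldlr among them, every such probe set was at least 2-fold higher at day 12. Probe sets of 1 gene measure the same RNA sample, so their spread covers the probes and leaves out any difference between cultures. Between the 2 brightest measured probe sets of a gene, the gap in log2 ratio had a median of 0.17 and was under 0.52 in 90% of 4446 genes. Of 10479 measured genes, 18 had a ratio at least as large as that of Vldlr, itself included. In RNA from a whole culture, more cells of one type and more RNA per cell cannot be told apart.

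Lrp4, the receptor for agrin and sclerostin, was the other member past 2-fold. Its only probe set, 1426288_at, gave 444 at day 12 and 147.2 at day 5, which is 3.02-fold higher. No second probe set named Lrp4 was analysed, so its ratio has no repeat. With the floor at the 75th percentile, which lies above its day 5 signal, the log2 ratio of 1.59 became a bound of 1.29. A ratio at least as large was found in 174 measured genes, Lrp4 included.

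At the 2-fold threshold, 2 of 8 measured members were higher at day 12 and none was lower, beside 3.56% higher and 1.73% lower among all measured genes. Vldlr fixed the choice of the group, so the count is given without a reading. By probe set, 6 of the 17 measured were at least 2-fold higher, 5 of Vldlr and that of Lrp4, beside 3.11% of all measured probe sets, and none was at least 2-fold lower, beside 1.78%. The median log2 ratio of the 8 members was -0.03, and that of all measured genes was -0.05.

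**Figure D2:**
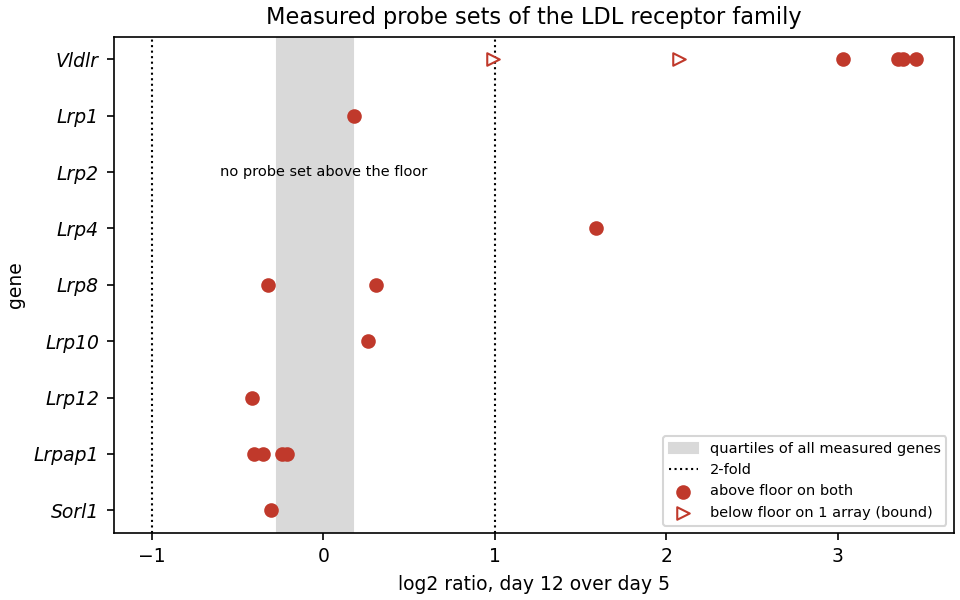
Log2 ratio of day 12 over day 5 (x axis) for each measured probe set, by gene; filled circles are above the floor on both arrays, open triangles are bounds, the grey band spans the quartiles of all measured genes and the dotted lines mark 2-fold. Vldlr and Lrp4 are the genes past 2-fold, and the probe sets of the 6 other measured genes lie between -0.42 and 0.31.

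Of the remaining receptors, Lrp1, a large endocytic receptor for remnant lipoproteins and protease complexes, gave 962.8 at day 12 and 851.2 at day 5, a log2 ratio of 0.18. Its other probe set was below the floor on both arrays. Lrp10, a receptor that cycles between the Golgi apparatus, endosomes and the surface, gave 622.8 at day 12 and 520.3 at day 5, a log2 ratio of 0.26. Both were slightly higher at day 12, by no more than probe sets of 1 gene often differ.

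Lrp12, a family member whose ligands are poorly known, gave 246 at day 12 and 328.4 at day 5. Its log2 ratio of -0.42 was the lowest of the 8 genes, and 14.6% of measured genes had a lower one. Lrp8, the other reelin receptor, was dim and its probe sets disagreed in direction. One gave 74.6 at day 12 and 93.3 at day 5 (1440882_at, log2 ratio -0.32), the next gave 60.7 at day 12 and 49.1 at day 5 (1442347_at, log2 ratio 0.31), and the third was below the floor on both arrays. No direction can be given for Lrp8, whose closest relative in structure, Vldlr, had the largest ratio of the family.

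Lrp2 (megalin), the endocytic receptor of kidney tubules and other absorptive epithelia, was below the floor on both arrays in all 3 of its probe sets. Their signals lay between 6.52 and 9.98 at day 12 and between 3.99 and 13.2 at day 5. The floor is a percentile of the array and no detection call, so a signal below it does not show absence.

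The chaperone gene Lrpap1 was the best measured of the members that stayed within 2-fold, with 4 probe sets, all above the floor at day 12 and at day 5. The brightest gave 2938 at day 12 and 3470 at day 5, and the next gave 1213 at day 12 and 1403 at day 5. The 2 dimmer ones gave 423.6 and 344.3 at day 12, against 560.3 and 439.7 at day 5. All 4 were lower at day 12, with log2 ratios between -0.40 and -0.21, a span of 0.19. The ratio of the brightest, -0.24, lay within the quartiles of all measured genes, -0.27 and 0.17. Those of the 2 dimmer ones, -0.40 and -0.35, lay below them. Among the 6 members within 2-fold, Lrpap1 was the only 1 whose brightest probe set lay within these quartiles. The sorting receptor gene Sorl1 had 1 measured probe set, with 103.9 at day 12 and 128.4 at day 5 (log2 ratio -0.31), and 2 below the floor. The ratios of Lrp12, Lrpap1 and Sorl1 stayed below 0, and those of Lrp1 and Lrp10 above 0, under each alternative scaling of the arrays.

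**Figure D3:**
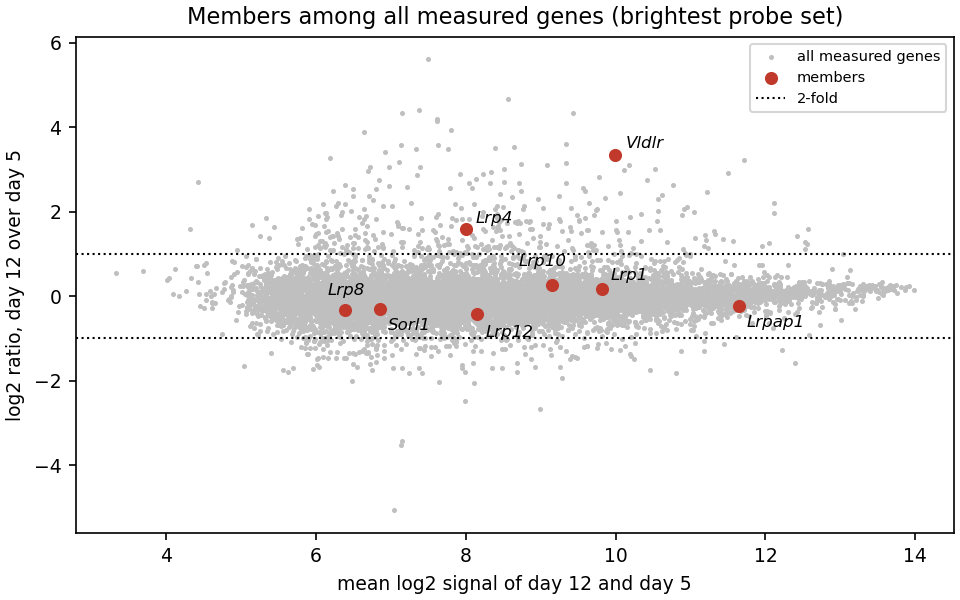
Log2 ratio of day 12 over day 5 against mean log2 signal of both arrays for the brightest probe set of each measured gene (grey) and of the 8 measured members (red); dotted lines mark 2-fold. Vldlr, at 3.35, and Lrp4, at 1.59, stand above the cloud, and the 6 others lie inside it.

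Relatives of the family outside the 9 genes did not move past 2-fold. Of 8 with a probe set, 5 were measured and had a median log2 ratio of -0.08. Cd320, the receptor for transcobalamin-bound vitamin B12, had 0.35, Lrp11 had -0.30 and Dgcr2 had -0.27. The 3 measured probe sets of Dgcr2 ran from -0.86 to 0.06, so no direction can be given for it. Among the Wnt co-receptors, Lrp6 gave 519.9 at day 12 and 514.5 at day 5 (log2 ratio 0.01), and its second measured probe set had -0.35. Lrp5 was below the floor on both arrays, with 32.2 at day 12 and 19.4 at day 5. Of 4 VPS10 domain relatives of Sorl1, 2 were measured, namely Sorcs2 with a log2 ratio of 0.79 and Sort1 (sortilin) with -0.49. Sorcs1 and Sorcs3 were below the floor.

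Among ligands and partners of these receptors, 3 of 17 measured genes passed 2-fold upwards at day 12 and 1 passed it downwards, and their median log2 ratio was 0.00. Apoe, the apolipoprotein that Vldlr, Lrp1 and Lrp8 bind, gave 1717 at day 12 and 375 at day 5, 4.58-fold higher. Lpl, the lipoprotein lipase that works with Vldlr in triglyceride uptake, gave 1560 at day 12 and 739.1 at day 5, 2.11-fold higher, and its second measured probe set had 1.04 as log2 ratio. Clu, the apolipoprotein J gene, gave 844.6 at day 12 and 1293 at day 5, with log2 ratios between -0.82 and -0.41 over its 4 measured probe sets. Apob and the reelin gene Reln were below the floor on both arrays.

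Of the secreted inhibitors that bind Lrp4 or the Wnt co-receptors, the measured genes Dkk1 and Sostdc1 went in opposite directions. Dkk1, a ligand of Lrp5 and Lrp6, had 685.1 at day 12 and 14.5 at day 5, at least 14.7-fold higher. Its second measured probe set had a log2 ratio of 1.45, and the bound of the brightest, 3.88, was 1.91 with the floor at the 75th percentile and 5.12 with the floor at the 50th. Sostdc1, which binds Lrp4, Lrp5 and Lrp6, had 136.6 at day 12 and 358.3 at day 5, 2.62-fold lower. The sclerostin gene Sost was just below the floor at day 12, with a signal of 41.5, against 0.98 at day 5. The agrin gene Agrn, with 483.1 at day 12 and 490.1 at day 5, differed little, and Musk, the kinase that Lrp4 activates in muscle, was below the floor.

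Genes that route, cleave or degrade the receptors stayed within 2-fold. None of 16 measured adaptors and sorting proteins passed it (median log2 ratio -0.11). The largest ratios among them were -0.55 for Gulp1, an adaptor of Lrp1 in engulfment, -0.38 for Apbb2 and a bound of -0.31 for Mapk8ip1, which reached -1.22 with the floor at the 50th percentile. A further measured probe set of Gulp1 gave -1.04. None of 10 measured genes for folding, shedding and turnover passed it (median -0.03). Mylip, the ubiquitin ligase that marks Vldlr and Lrp8 for breakdown, had 1342 at day 12 and 1307 at day 5. The γ-secretase subunit gene Ncstn had a log2 ratio of -0.50, from signals of 49.1 at day 12 and 69.3 at day 5, close to the floor. The subunit gene Psenen had -0.22 and the sheddase gene Adam17 had 0.18.

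Of 8 other lipoprotein and scavenger receptors, 4 were measured. Cd36, a fatty acid and oxidised lipoprotein receptor, had 124.2 at day 12 and 32.7 at day 5, at least 2.66-fold higher. Stab1 had a log2 ratio of 0.74, Scarb1, the HDL receptor, 0.23 and Msr1 -0.43. None of 8 measured sterol-responsive genes passed 2-fold, and their median was -0.19. The largest ratios were -0.44 for Insig1, which holds the sterol sensor in the endoplasmic reticulum, -0.40 for Idi1 and -0.33 for Fdft1.

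Genes known to be induced by low oxygen, a class to which Vldlr has also been assigned, were the list furthest above day 5. Of 17 measured, 15 were at least 2-fold higher and none was at least 2-fold lower, with a median log2 ratio of 2.77 against -0.05 for all measured genes. Slc2a1, the glucose transporter, had 3395 at day 12 and 397 at day 5 (8.55-fold), Vegfa, the angiogenic growth factor, was 6.80-fold higher and Pdk1 was 5.58-fold higher. The second measured probe set of Vegfa had a log2 ratio of 1.88, and with the floor at the 75th percentile its brightest had 2.01, against 2.77 as deposited. The others past 2-fold were Bnip3, Ndufa4l2, Egln1, Pgk1, Hk2, Pfkfb3, P4ha1, Ak4 and Aldoc. Car9, Egln3 and Ankrd37 were also past it, as bounds, being below the floor at day 5. The 3 measured probe sets of Ak4 ran from 0.76 to 3.50 in log2 ratio. Adm (0.80, with another probe set at 1.10) and Ldha (0.99) stayed within 2-fold. The list was written with these results known, and its part in the ratio of Vldlr was not tested. Promoter windows were searched for the whole list of 18 genes, of which 17 had a window. ACGTG or GCGTG occurred in 25 of 27 of these windows, beside 6 of 11 windows of the members and 43.8% of all windows. The genes were listed as induced by low oxygen, so this share is a description and supports nothing.

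**Figure D4:**
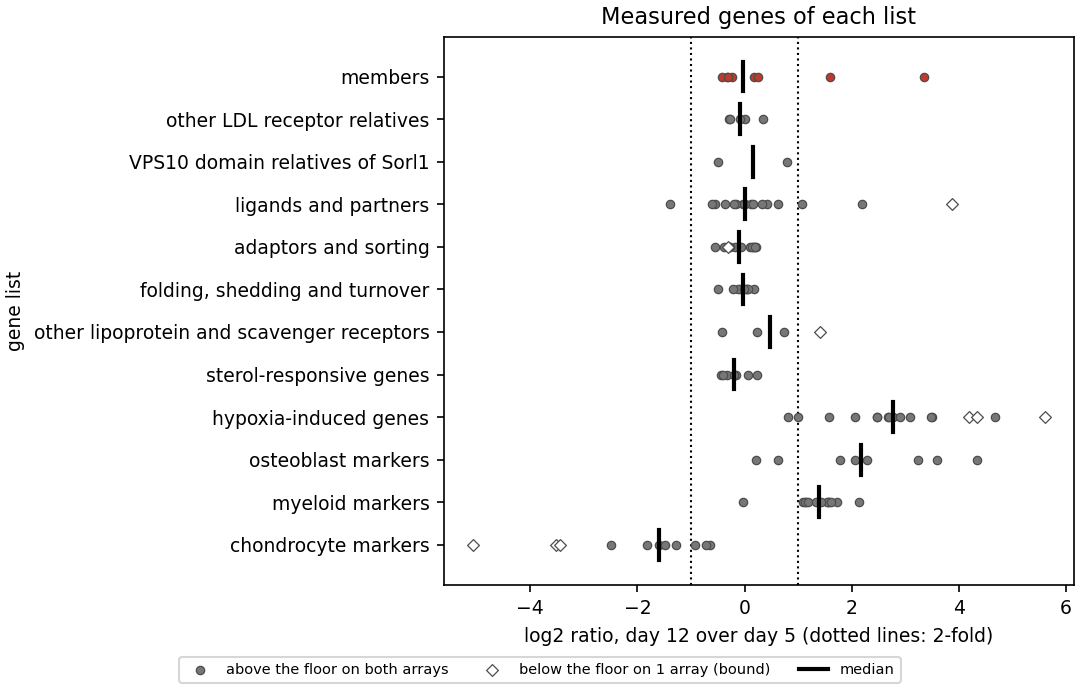
Log2 ratio of day 12 over day 5 (x axis) for the measured genes of each list; circles are above the floor on both arrays, open diamonds are bounds, black bars are medians and dotted lines mark 2-fold. The hypoxia-induced genes and the osteoblast and myeloid markers lie mostly above 2-fold, with medians of 2.77, 2.18 and 1.39, while the sorting, turnover and sterol-responsive genes lie within it.

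The labelled cell type was checked against its markers. All 8 osteoblast markers on the array were above the floor on both days, and 6 were at least 2-fold higher at day 12. Ibsp, the bone sialoprotein gene, had 10334 at day 12 and 1098 at day 5, the alkaline phosphatase gene Alpl had 3355 at day 12 and 684.1 at day 5, and the transcription factor gene Sp7 had 1138 at day 12 and 330.1 at day 5. Dmp1, Ifitm5 and Pth1r were 20.2-fold, 12.1-fold and 4.18-fold higher, and Col1a1 and Col1a2 had log2 ratios of 0.63 and 0.21. Runx2 and Bglap were not analysed here.

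Markers of other cell types moved too. Of 15 measured myeloid markers, 14 were past 2-fold upwards at day 12, beside 3.56% of all measured genes. They were Ptprc, Cd14, Csf1r, Adgre1, Cd68, Lyz2, Tyrobp, Fcer1g, Mrc1, Cd53, Laptm5, C1qa, C1qb and C1qc, between 2.12-fold and 4.38-fold. Cx3cr1 had a log2 ratio of -0.02. The lowest log2 ratios over the measured probe sets of Csf1r, Laptm5 and C1qb were 0.69, 0.89 and 0.93. The summed signal of the 16 on the array was 14796 at day 12 and 5905 at day 5, a ratio of 2.51. Such sums, here and below, follow the brightest probe sets: Lyz2 alone had 5984 at day 12 and 2649 at day 5. Itgam, which encodes CD11b, was below the floor on both arrays, with 35.4 at day 12 and 14.6 at day 5. Of 11 chondrocyte markers, 8 were at least 2-fold lower (Matn1, Col9a1, Col9a2, Col9a3, Cnmd, Hapln1, Snorc and Ucma), and the summed signal was 13399 at day 12 and 34795 at day 5. The ratios of Matn1, Snorc and Ucma are bounds, as these genes were below the floor at day 12. Apoe, Lpl and Cd36 are also made by macrophages. The part of these cells in the ratios of Vldlr, Lrp4, Apoe, Lpl and Cd36 was not tested. The 7 endothelial markers were all below the floor on both arrays, with summed signals of 62 at day 12 and 61.1 at day 5. No adipocyte marker was higher at day 12: Adipoq and Fabp4 had log2 ratios of -0.75, a bound, and -0.83, Pparg had -0.54, Cebpa had -0.12, and Lep and Cidec were below the floor. Of 3 measured smooth muscle markers, Cnn1 was 2.17-fold lower and the others were within 2-fold.

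The genes most like Vldlr in pattern were sought among 4226 genes that passed the floor on each array and whose day 5 signal was within 2-fold of that of Vldlr, by the difference in log2 ratio over these 2 arrays. The nearest was Cd200, a membrane glycoprotein gene, with 1925 at day 12 and 217 at day 5 (log2 ratio 3.15). It was followed by Cadm1, an adhesion molecule gene (3.12), Ifitm5, a membrane protein gene of mineralising osteoblasts (3.59), Slc2a1 (3.10) and Sgms2, a sphingomyelin synthase gene (3.01). Their ratios differed from that of Vldlr by 0.34 or less, which is likeness over 2 arrays only.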

How the data were processed

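RNA from 1 culture at day 12 and 1 at day 5 was made into biotin-labelled cRNA from 5 µg each and read on 1 Affymetrix array per culture, per the labels' protocols. GCOS 1.4 and MAS5 are named per the submitters' processing notes, with no further settings. The authors deposited signal intensity on a linear scale for 45101 probe sets. The mean after trimming 2% at each end was 200.0 on both arrays, so they carry a common scaling and a change in total RNA per cell would not show. No detection calls were used, and the genome build is not given in the sources used here. Precision is limited by the number of arrays.

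Of 45037 probe sets other than controls, 34945 had 1 symbol in the platform annotation, 932 several and 9160 none, and 34741 symbols were updated through Entrez numbers in a GRCm38.p6 table. Only probe sets with 1 symbol were named. Values were used as deposited, with the floor and 2-fold threshold of the report. Hybridisation controls above the floor had log2 ratios between -0.08 and 0.17. The members and lists were chosen with earlier results of these data known. The rule for named genes took all members, each list's genes past 2-fold or else its 3 largest ratios, the osteoblast markers, Itgam, and the 5 genes nearest to Vldlr. List genes named within 2-fold beside these, or below the floor, were added after their values were seen. The 10 alternatives were 3 scalings (median centring, quantile, loess), a floor at the 50th or the 75th percentile, a pseudocount of 16, the median of all probe sets of a gene, no probe sets with the suffixes that mark shared sequence, and a threshold of 1.5-fold or of 3-fold. Scripts were tested on simulated data. Python 3.11.15, numpy 2.4.6, pandas 2.3.3, statsmodels 0.14.6 and matplotlib 3.10.9 were used.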

Additional observations from a re-analysis of the deposited data

How the results depend on the processing

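The counts of members past 2-fold, 2 higher and 0 lower at day 12, held under all 10 alternatives; no test was possible with 1 array per day. The log2 ratio of Vldlr lay between 3.03 and 3.39 under the 8 alternatives that changed values, and its lowest, 3.03, came without probe sets of shared sequence, which leaves 1435893_at as its brightest. The median of the members was -0.03 as deposited and 0.22 with the 75th percentile floor, under which 6 members remained measured. It was also above 0 after loess (0.01) and with the median over probe sets (0.09). Lrp8 had a log2 ratio of -0.01 with the median over its probe sets. Over 78 other named genes, 57 values under the alternatives moved by 0.17 or more in log2 ratio and 549 by less. A gene not measured under an alternative gave no value there, so it is left out of these counts and of the calls lost. Bounds moved with the floor, as that of Dkk1 did, from 1.91 to 5.12. Of these genes, 53 were past 2-fold, and 3 of these came within it: Cd53 with the 75th percentile floor (0.83), and Cd14 (0.88) and Ptprc (0.97) with a pseudocount. With the 50th percentile floor, Mapk8ip1 (-1.22) and Adipoq (-1.94) came past it, as did Adipoq with a pseudocount (-1.44). No paired analysis was possible because each day has 1 array. Signal close to the floor limits what can be said of Lrp8, and signal below it on both arrays what can be said of Lrp2.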
